A study of Homo sapiens with 6 samples.

Results

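The 10 genes described here are members of the BCL2 family, the proteins that decide whether the outer membrane of mitochondria is opened during apoptosis. They were taken by symbol from a table of 35238 genes: the pro-survival genes BCL2, BCL2L1 and MCL1, the effectors BAX, BAK1 and BOK, and the BH3-only genes BBC3, PMAIP1, BCL2L11 and BID. All 10 had a row in the table, and all 10 passed the filter on low counts. RNA was sequenced from 3 untreated HAP1 DEGS1 KO libraries and from 3 untreated HAP1 WT libraries, called knockout and wildtype below. HAP1 is an established, near-haploid human line that derives from a chronic myeloid leukaemia. Both genotypes were grown in IMDM with 5% FBS and antibiotics. DEGS1 encodes the desaturase that turns dihydroceramide into ceramide. The labels do not say whether the knockout is 1 clone or whether the replicates were separate cultures, so the spread behind each p-value is that of these libraries and may be technical.

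Pro-survival proteins bind and hold back BAX, BAK1 and the BH3-only proteins. BH3-only proteins are made or activated under stress, and they block the pro-survival proteins or activate BAX and BAK1 directly. Active BAX and BAK1 form pores from which cytochrome c escapes, and cytochrome c starts the caspases. Ceramide has long been studied as a lipid that promotes this step. Much of the control of the family acts on the proteins, which RNA counts do not show.

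Totals ran from 19389644 to 27659835 counts per library in the knockout and from 17322756 to 28988522 in wildtype. Levels are given as CPM, a gene's counts relative to the scaled library total, unless stated otherwise. A log2 fold change sets knockout over wildtype, and SE stands for its standard error. Adjusted p-values were obtained by edgeR's quasi-likelihood F test, with the Benjamini-Hochberg method applied over all 16954 tested genes, and a gene was called at an adjusted p under 0.05. DEGS1 stood at 9.49, 6.88 and 10.4 CPM in the knockout libraries, against 105, 123 and 95.5 CPM in wildtype, which fits the labels. Wildtype replicate 2 stood apart from the other wildtype libraries. Leaving it out raised the genes called across the table to 3825, against 756 with it. Of 9 blood cell markers, SPI1, HBG1 and MPO had no count in any library, although the line has a leukaemic origin. The 5 tested blood markers summed to between 59 and 69.6 CPM in the knockout and between 46 and 47.2 CPM in wildtype. That sum is mostly TAL1, which rose to 53.1, 64.1 and 61.7 CPM in the knockout, against 29.6, 24.8 and 32.7 CPM in wildtype (log2 fold change 1.04, adjusted p = 0.000563 by edgeR). HCLS1 went the other way, at 0.821, 1.19 and 0.911 CPM in the knockout against 10.3, 19.8 and 8.68 CPM in wildtype (-3.72 on the log2 scale, adjusted p = 7.64e-05 by edgeR). Of 6 epithelial markers KRT19 was at 0, and the 5 tested summed to between 69.4 and 103 CPM in the knockout and between 74.2 and 83.3 CPM in wildtype. KRT18 holds most of that sum, while 2 low epithelial markers fell further than any gene described below. CLDN1 was at 0.462, 0.612 and 0.875 CPM in the knockout, against 6.64, 9.36 and 6.48 CPM in wildtype (-3.50 on the log2 scale, adjusted p = 4.78e-05 by edgeR). EPCAM was at 0.41, 0.306 and 0.109 CPM in the knockout, against 2.04, 2.82 and 1.61 CPM in wildtype (-3.01 on the log2 scale, adjusted p = 0.00233 by edgeR). Of 6 fibroblast markers LUM was at 0, and the 4 tested summed to between 9.64 and 12.7 CPM in the knockout and between 8.17 and 13.1 CPM in wildtype. The part of these markers in any result below was not tested.

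Of the 10 family members BOK alone passed the test, and it fell. The other 9 members did not pass the test. Across all tested genes 4.46% were called in either direction, 1.51% higher and 2.95% lower, so 1 member of 10 is a share that a single gene decides. The groups did not overlap in 2 members, BOK and BCL2, against 20.8% of all tested genes. The same 2 members had an unadjusted p under 0.05, against 16.5% of all tested genes. The log2 fold change was positive in 7 members and negative in 3. The share of positive values over all tested genes was not counted. The median log2 fold change over the members was 0.12, against -0.02 over all tested genes, many of them of lower level. Among well expressed genes of the members' chromosomes it ran from -0.05 on chromosome 22 to 0.09 on chromosomes 6 and 20. The median of its absolute size was 0.18 over the members, against 0.19 over all tested genes.

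**Figure D1:**
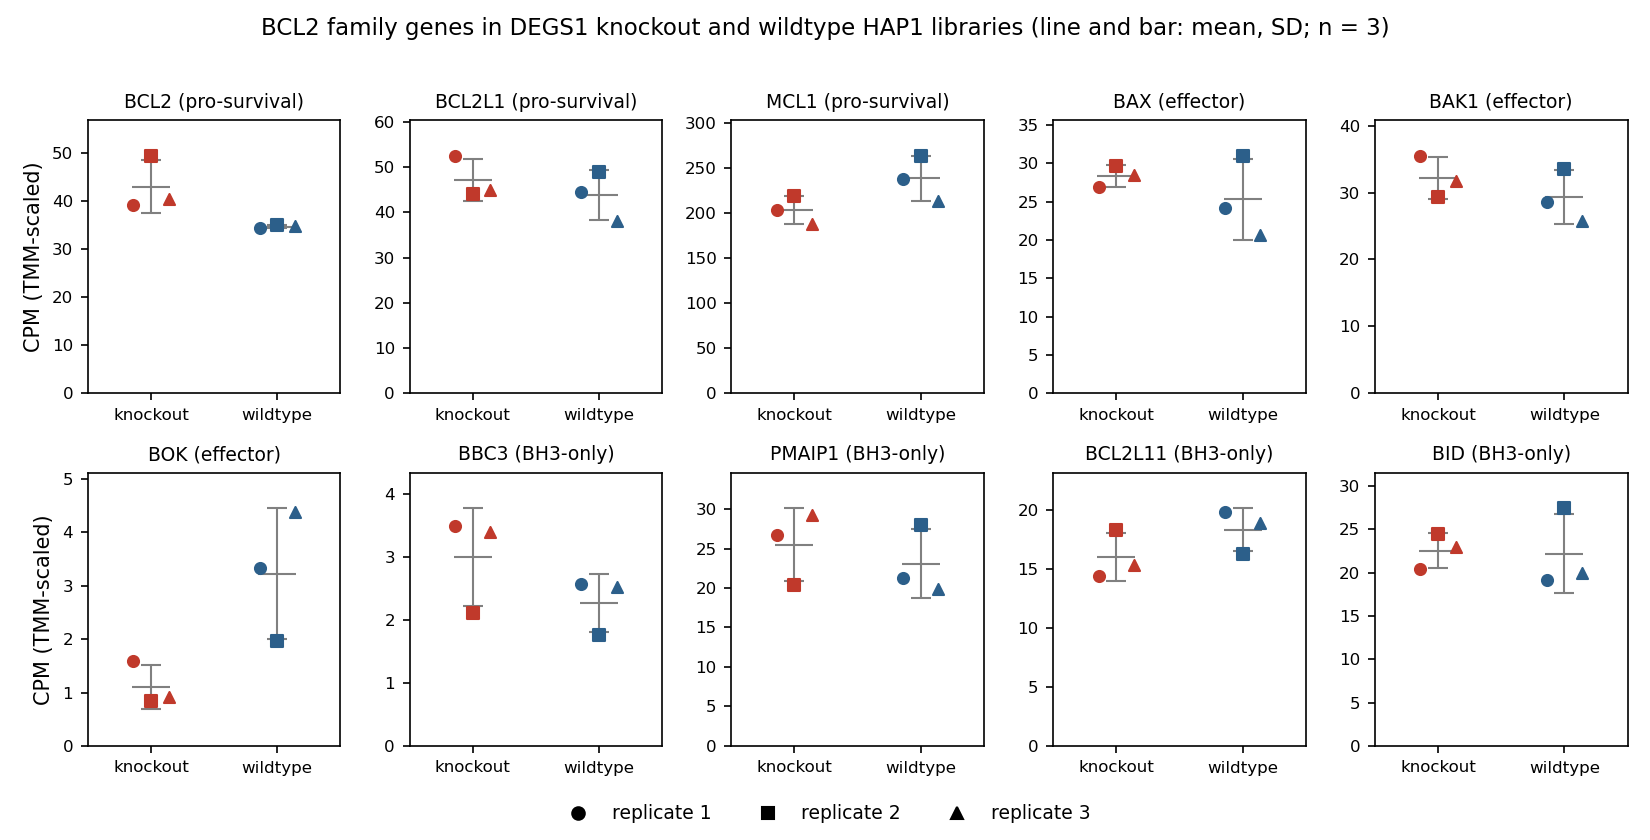
Level of each family member (vertical axes, CPM, each starting at 0) in the knockout libraries (red) and the wildtype libraries (blue), with 1 symbol per library, and lines and bars for the mean and SD of 3 libraries. The 3 knockout libraries lie below all wildtype libraries in BOK and above them in BCL2, and the groups overlap in the other 8 panels.

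BOK encodes a relative of BAX and BAK1 that can permeabilise the outer membrane and that is found largely at the endoplasmic reticulum. It had 31, 22 and 25 counts in the knockout libraries, against 85, 53 and 82 counts in wildtype. These counts correspond to 1.59, 0.841 and 0.911 CPM in the knockout and to 3.34, 1.97 and 4.39 CPM in wildtype. The highest knockout library lay below the lowest wildtype library, wildtype replicate 2. The mean was 1.11 ± 0.414 CPM in the knockout and 3.23 ± 1.22 CPM in wildtype (SD, n = 3 each). Its log2 fold change was -1.55 (SE 0.37, adjusted p = 0.0381 by edgeR), a level 2.92-fold lower in the knockout with a 95% interval of 1.66 to 5.13. In such bulk RNA, fewer cells with BOK RNA and less BOK RNA per cell cannot be told apart.

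The call on BOK rested on few counts and on most of the libraries. Its log2 fold change ran from -1.85 to -1.27 over 17 alternative settings, and it lost its call in 8 of them. These included the fits without knockout replicate 2 (adjusted p = 0.14 by edgeR), without knockout replicate 3 (0.195), without wildtype replicate 1 (0.103) and without wildtype replicate 3 (0.102). Without wildtype replicate 2 the log2 fold change was -1.81 (SE 0.30, adjusted p = 0.00153 by edgeR). BOK overlaps the antisense gene BOK-AS1 in GENCODE release 29. No row of the table has the name BOK-AS1, and the strand setting of the counting is not given in the sources used here. Whether reads of BOK-AS1 were counted under BOK is therefore not known, although the libraries were stranded.

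The sequence before the BOK transcription start is shown because BOK alone among the members was called. RefSeq gives this stretch of 250 bases as chr2:241558495-241558744 of GRCh38.p14, plus strand. The capitals mark CG dinucleotides, the sites where DNA can be methylated. The letters are those of the reference genome, whose build differs from the hg19 of the counts.
BOK: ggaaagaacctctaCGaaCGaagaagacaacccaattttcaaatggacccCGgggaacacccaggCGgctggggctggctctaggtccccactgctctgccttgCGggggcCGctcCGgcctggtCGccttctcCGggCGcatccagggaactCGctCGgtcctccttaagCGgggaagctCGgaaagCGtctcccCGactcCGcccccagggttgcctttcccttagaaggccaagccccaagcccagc

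This stretch holds 17 CG dinucleotides on the strand shown, against a median of 11 over the 35116 windows of the same length in the RefSeq table, and 61% of those windows hold fewer. Windows were found for 9 members, some with several starts. The BCL2 window holds 24 CG dinucleotides, the PMAIP1 window 36 and the BCL2L11 window 34. At the low end, the BBC3 window holds 4 and the BAK1 window 5. In members with several starts the count depends on the start, with 4 to 30 in BID and 12 and 17 in BCL2L1. BOK is therefore neither the richest nor the poorest member in CG. DNA methylation was not measured here.

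No gene next to BOK on chromosome 2 passed the test. RefSeq's order was used to take the 10 tested genes before BOK and the 5 after it, the last tested ones of the chromosome. None of these 15 neighbours was called by edgeR, and 0 had an unadjusted p under 0.05. Their log2 fold changes ran from -0.40 in ANO7 to 0.16, with a median of -0.01. STK25 and THAP4, the nearest on either side, had log2 fold changes of 0.08 (SE 0.11) and 0.16 (SE 0.10). The neighbours were looked at after the value of BOK was known.

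**Figure D2:**
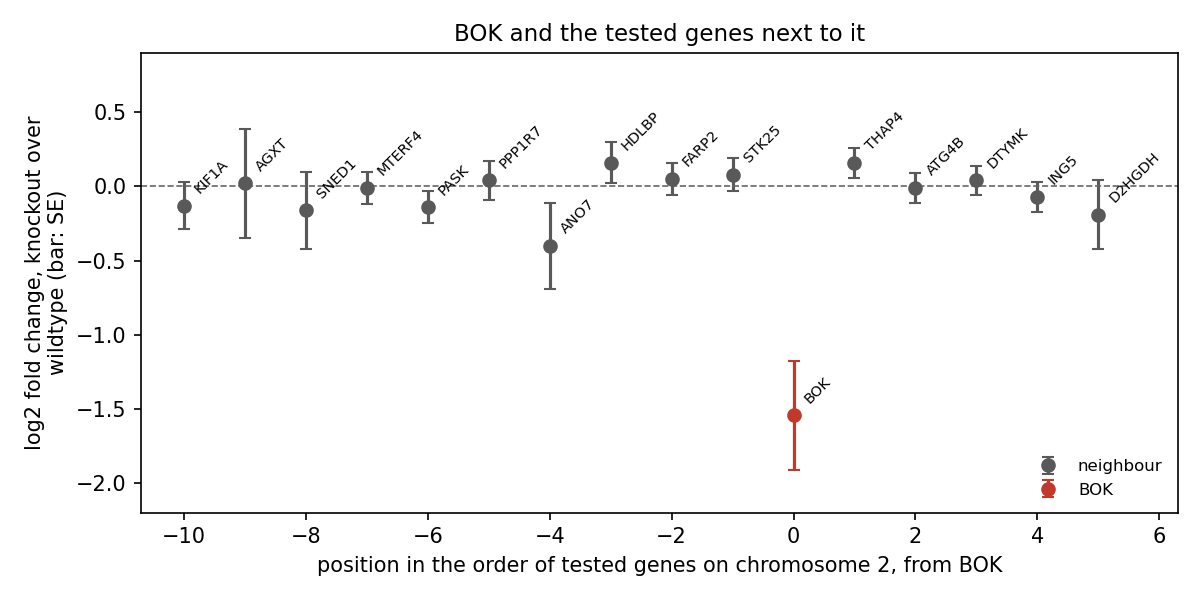
Log2 fold change of BOK (red) and of the tested genes beside it (grey), in their order along chromosome 2, with bars for the SE from 3 libraries per genotype. BOK lies at -1.55, and its 15 neighbours lie between -0.40 and 0.16.

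Of the other effectors, BAX encodes the form that waits in the cytosol until it is activated. It stood at 26.9, 29.7 and 28.5 CPM in the knockout libraries, against 24.2, 31 and 20.6 CPM in wildtype. The knockout values lie inside the range of wildtype, which wildtype replicate 2 sets at its upper end. This gave a log2 fold change of 0.16 (SE 0.15, 95% interval -0.16 to 0.49, adjusted p = 0.624 by edgeR). Without wildtype replicate 2 it was 0.34 (SE 0.12, adjusted p = 0.0536 by edgeR).

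BAK1 encodes the effector that sits in the outer mitochondrial membrane at rest. It had 35.5, 29.3 and 31.7 CPM in the knockout and 28.6, 33.6 and 25.7 CPM in wildtype, and the groups overlap. Its log2 fold change was 0.13 (SE 0.13, 95% interval -0.15 to 0.42, adjusted p = 0.662 by edgeR). BAK1 overlaps GGNBP1, a pseudogene on the other strand. The intervals of BAX and BAK1 exclude a change as large as that of BOK. The sum of the 3 effectors was 64, 59.8 and 61.2 CPM in the knockout, against 56.2, 66.6 and 50.7 CPM in wildtype, and the groups overlap.

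MCL1 encodes a short-lived pro-survival protein. Its RNA stood at 204, 219 and 188 CPM in the knockout libraries, against 238, 264 and 214 CPM in wildtype. Knockout replicate 2 lies above wildtype replicate 3, so the groups overlap by 1 library each. On the log2 scale the difference was -0.23 (SE 0.13, 95% interval -0.51 to 0.05, adjusted p = 0.405 by edgeR). A fall of MCL1 beyond 1.42-fold lies outside that interval.

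BCL2, the founding member of the family, stood at 39.2, 49.5 and 40.6 CPM in the knockout libraries, against 34.4, 35.1 and 34.8 CPM in wildtype. Each knockout library lies above each wildtype library, and the wildtype values lie close together, with an SD of 0.332 CPM against one of 5.6 CPM in the knockout. Its knockout over wildtype log2 ratio was 0.31 (SE 0.12, 95% interval 0.06 to 0.56) with an unadjusted p of 0.0198 and an edgeR adjusted p of 0.188, which does not pass. Over the 17 alternatives it ran from 0.20 to 0.39, with adjusted p-values from 0.0597 to 0.534, and none of the 17 called it. BCL2 also overlaps the intronic gene AC022726.1 on the same strand, which has no counts of its own here.

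BCL2L1 encodes BCL-XL as well as a shorter form of opposite action, and counts per gene cannot separate these splice forms. It had 52.5, 44 and 45 CPM in the knockout and 44.6, 49 and 38 CPM in wildtype, with overlapping groups. It overlaps the antisense gene ABALON. The log2 fold change was 0.10 (SE 0.12, 95% interval -0.17 to 0.37, adjusted p = 0.721 by edgeR).

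The makeup of the pro-survival reads was also read within each library, a quantity that does not depend on how libraries are scaled. MCL1 held 69%, 70% and 68.7% of the summed CPM of MCL1, BCL2 and BCL2L1 in the knockout libraries, against 75.1%, 75.8% and 74.6% in wildtype. The groups do not overlap, and each varies by under 2 percentage points. Per kb of exon the share was 69.8%, 73.2% and 70.6% in the knockout, against 75.9%, 76.3% and 76.3% in wildtype. For each 100 reads of MCL1 there were 19.2, 22.7 and 21.6 reads of BCL2 in the knockout, against 14.4, 13.3 and 16.2 in wildtype. These ratios were chosen after the values of the genes had been seen and carry no test, and neither gene was called by itself. The sum of the 3 pro-survival genes overlapped, at 296, 312 and 274 CPM in the knockout and 317, 348 and 287 CPM in wildtype.

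**Figure D3:**
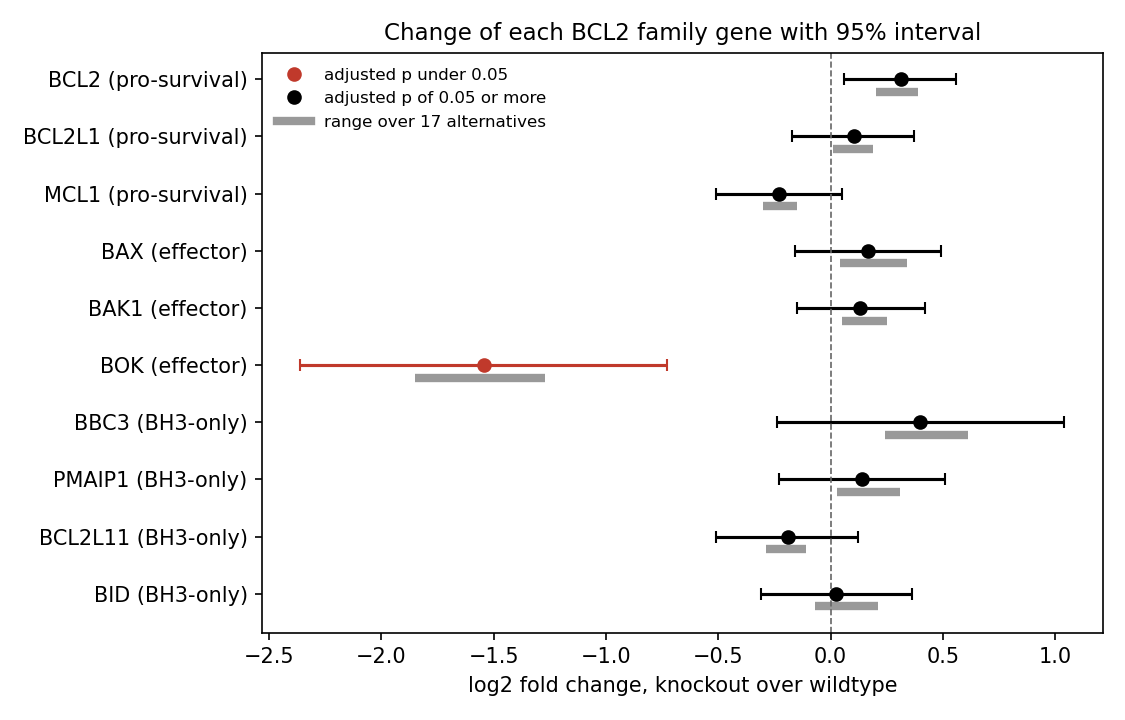
Log2 fold change of each member (horizontal axis, knockout over wildtype) with its 95% interval from edgeR, and below each a grey bar for its range over 17 alternative settings. BOK at -1.55 (red) is the member with an adjusted p under 0.05, and the intervals of BOK and BCL2 are those that do not reach 0.

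Among the BH3-only genes, BBC3 encodes PUMA, which binds every pro-survival protein of the family. It stood at 3.49, 2.1 and 3.39 CPM in the knockout, against 2.56, 1.75 and 2.52 CPM in wildtype. Replicate 2 was the lowest library of both genotypes, and the groups overlap through it. Its log2 fold change was 0.40 (SE 0.29, 95% interval -0.24 to 1.04, adjusted p = 0.539 by edgeR), an interval that reaches from a level 1.18-fold lower in the knockout to one 2.05-fold higher.

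PMAIP1 encodes NOXA, which binds MCL1 and favours its degradation. It had 26.7, 20.4 and 29.3 CPM in the knockout and 21.3, 28 and 19.9 CPM in wildtype. Both groups cover about the same range, with replicate 2 the lowest knockout library and the highest wildtype library. This gave a log2 fold change of 0.14 (SE 0.17, 95% interval -0.23 to 0.51, adjusted p = 0.721 by edgeR).

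BCL2L11 encodes BIM, which is held on the cytoskeleton or made anew when growth signals fail. It stood at 14.4, 18.3 and 15.3 CPM in the knockout, against 19.8, 16.3 and 18.9 CPM in wildtype. The overlap comes from replicate 2, the highest knockout library and the lowest wildtype library. Its log2 fold change was -0.19 (SE 0.14, 95% interval -0.51 to 0.12, adjusted p = 0.549 by edgeR). In GENCODE release 29 it overlaps the long noncoding gene MIR4435-2HG on the other strand.

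BID links death receptors to mitochondria after caspase cleavage. It had 20.4, 24.4 and 22.9 CPM in the knockout and 19.1, 27.4 and 20 CPM in wildtype, and the knockout values lie inside the wildtype range. On the log2 scale the difference was 0.02 (SE 0.15, 95% interval -0.31 to 0.36, adjusted p = 0.954 by edgeR). Its sign was negative in 5 of 17 alternatives, so no direction is given for it. The 4 BH3-only genes summed to 65, 65.2 and 71 CPM in the knockout, against 62.8, 73.4 and 61.3 CPM in wildtype.

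Wildtype replicate 2 was the highest wildtype library in 7 of the 10 members and the lowest in the other 3, BOK, BBC3 and BCL2L11. It thus set 1 end of the wildtype range for every member. Knockout replicate 2 did the same in the knockout, as its highest library in 5 members and its lowest in the other 5. Without wildtype replicate 2, 22.1% of tested genes were called, and BOK was again the 1 member of 10 that passed. The next smallest adjusted p-values in that fit were those of BAX (0.0536) and BCL2 (0.0597).

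To compare genes with each other, CPM was divided by the length of each gene's merged exons in GENCODE release 29. MCL1 led with 49.8 ± 3.75 CPM per kb in the knockout and 58.5 ± 6.09 CPM per kb in wildtype (SD, n = 3 each), and its libraries lay above those of every other member in both groups. BAX followed with 20.1 ± 1.01 CPM per kb in the knockout and 17.9 ± 3.74 CPM per kb in wildtype. In wildtype the ranges of BAX, BCL2L1, BAK1, PMAIP1 and BID form a chain in which each overlaps the next, so neighbours in this order are not resolved. Members further apart are: BAX lay wholly above PMAIP1 and BID, and BCL2L1 and BAK1 lay wholly above BID. In the knockout PMAIP1 lay above BID without overlap. BAX lay above BCL2L1 there too, but with the length of the longest transcript BAX, at 19.8 to 21.9 CPM per kb, overlapped BCL2L1, at 16.8 to 20.1 CPM per kb.

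Further down the order, BCL2 had 3.67 ± 0.477 CPM per kb in the knockout and 2.96 ± 0.0283 CPM per kb in wildtype. BCL2L11 had 2.63 ± 0.334 CPM per kb in the knockout and 3.00 ± 0.298 CPM per kb in wildtype. All knockout libraries of BCL2 lay above those of BCL2L11, while in wildtype the range of BCL2 fell inside that of BCL2L11. With the longest transcript in place of merged exons BCL2 led BCL2L11 in both groups, because the length taken for BCL2 was then 7.46 kb, against 11.7 kb for merged exons. BOK and BBC3 were the lowest. BOK stood at 0.419 ± 0.156 CPM per kb in the knockout, below all libraries of BBC3 at 1.43 ± 0.369 CPM per kb. In wildtype BOK at 1.22 ± 0.457 CPM per kb and BBC3 at 1.09 ± 0.218 CPM per kb overlapped.

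**Figure D4:**
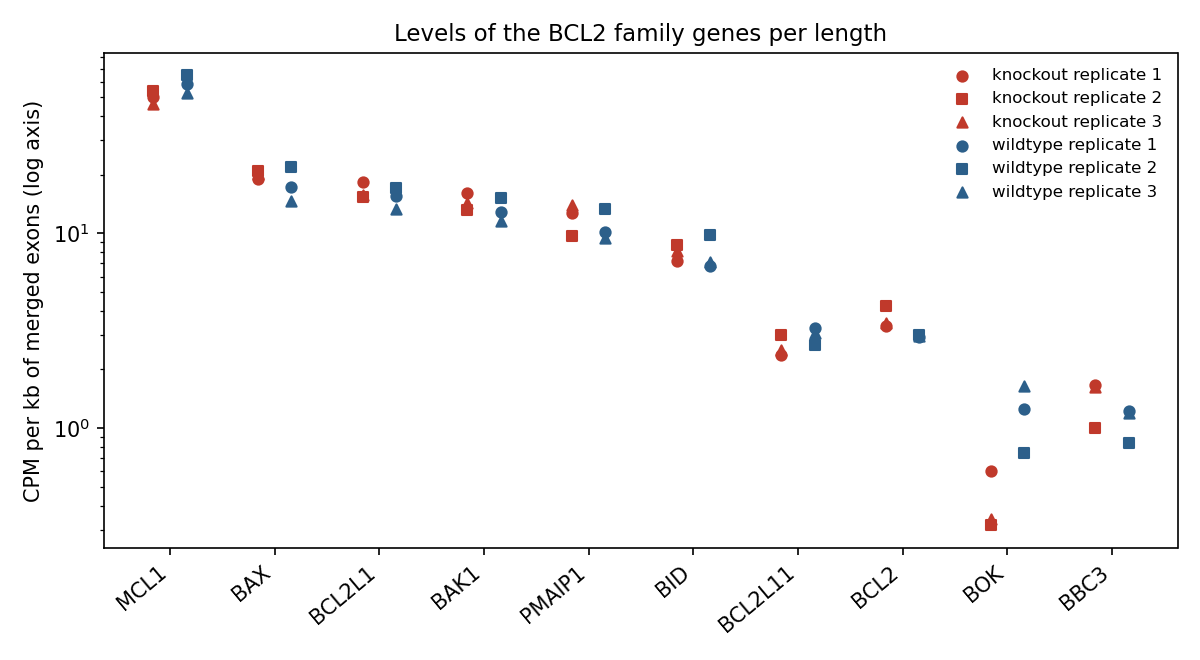
Level per length of each member (vertical axis, CPM per kb of merged exons, log axis) in each library, ordered by the wildtype mean, with knockout in red and wildtype in blue. MCL1 lies highest, between 46 and 64.6 CPM per kb, and BOK in the knockout lies lowest, between 0.317 and 0.599 CPM per kb.

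The rest of the apoptosis machinery gave few calls. Of 131 other genes in 9 lists 126 were tested, and 3 rose and 0 fell in edgeR's test. The 3 are 2.38% of the 126, against 4.46% of all tested genes. An unadjusted p under 0.05 by edgeR was found in 28 of the 126, a larger share than the 16.5% of all tested genes. That difference was not tested. The counts of unadjusted p in single lists below are to be read beside that 16.5%. Counts of positive values in the lists have no such share beside them and are not read as a result. DESeq2's Wald test called 5, the same 3 with TNFRSF1A, which rose, and SUSD6, which fell. The log2 fold changes of TNFRSF1A and SUSD6 in that test were 0.59 and -0.81. In limma voom 2 were called, PPM1D and DDIT3. Without wildtype replicate 2 edgeR called 36 of these genes, in a fit that called 22.1% of all tested genes. Of the genes named below as not called, SUSD6, FOXO3, BNIP3L, VDAC2, NAIP, TNFRSF1A, USP13, HUWE1, FBXW7 and PPP2R5E were among the 36. Their log2 fold changes in that fit were 0.66 for BNIP3L, 0.55 for TNFRSF1A, 0.35 for VDAC2 and 0.32 for FBXW7. On the negative side they were -0.38 for USP13, -0.42 for PPP2R5E, -0.44 for FOXO3, -0.58 for HUWE1, -0.68 for NAIP and -0.75 for SUSD6. The adjusted p-values of these genes by edgeR ran from 0.00106 to 0.048.

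PPM1D, a phosphatase that ends the response to DNA damage, rose. It had 63.8, 72.2 and 58.9 CPM in the knockout, against 36.6, 39.4 and 34 CPM in wildtype. The groups are far apart for their spread, with a log2 fold change of 0.83 (SE 0.11, adjusted p = 0.00125 by edgeR) that was called in all 17 alternatives. It was the 1 call among 24 tested genes of a list that covers only part of the DNA damage response. The other 23 did not pass, while 9 of the 24 had an unadjusted p under 0.05. The smallest p of the other 23 was that of SUSD6, at -0.83 on the log2 scale (SE 0.22, adjusted p = 0.0617 by edgeR). SUSD6 was called in 4 of 17 alternatives. CDKN1A, an inhibitor of the cell cycle, did not pass, with 0.22 on the log2 scale (SE 0.35). The list had 12 positive and 12 negative values and a median of 0.00.

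DDIT3 encodes CHOP, a stress factor that can raise BH3-only genes, and it rose. It had 28.2, 23.9 and 27.8 CPM in the knockout, against 16.6, 18.9 and 14.5 CPM in wildtype, with no overlap. Its knockout over wildtype log2 ratio was 0.68 (SE 0.14, adjusted p = 0.016 by edgeR), and the call was lost in 4 of 17 alternatives, among them the fits without knockout replicate 1 (0.0691), without knockout replicate 3 (0.0949) and without wildtype replicate 1 (0.0644). The other 13 transcriptional regulators of BH3-only genes did not pass. The smallest p among those 13 was that of FOXO3, which had a negative value (log2 fold change -0.36, SE 0.11, adjusted p = 0.107 by edgeR). Of the 14, 5 had an unadjusted p under 0.05, against 16.5% of all tested genes. The 14 had 8 positive and 6 negative values and a median of 0.06.

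HTRA2, a protease released from mitochondria that degrades caspase inhibitors, rose. It had 26.1, 22.4 and 26.5 CPM in the knockout and 18.4, 17.8 and 16.8 CPM in wildtype. Its log2 fold change was 0.50 (SE 0.12, adjusted p = 0.044 by edgeR). The call was lost in 9 of 17 alternatives (edgeR adjusted p up to 0.226), among them the fits without knockout replicate 1 (0.153), without knockout replicate 3 (0.226), without wildtype replicate 1 (0.151) and without wildtype replicate 3 (0.145). HTRA2 lies on chromosome 2, and with chromosome medians removed it had an adjusted p of 0.0767. The other 11 genes of released factors and the apoptosome did not pass. In this list 11 of 12 log2 fold changes were positive, with a median of 0.12.

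None of the other lists held a call in edgeR's test. Of 11 tested further BCL2 family genes, 7 had positive values (median 0.17), and the smallest p was that of BNIP3L, a mitophagy receptor, with 59.7, 74.2 and 68.3 CPM in the knockout against 43, 59.8 and 42.5 CPM in wildtype (log2 fold change 0.48, SE 0.15, adjusted p = 0.103 by edgeR). BNIP3L was called in 4 of 17 alternatives and was the 1 gene of its list with an unadjusted p under 0.05. Of the pro-survival genes in that list, BCL2L2 had a log2 fold change of -0.13 (SE 0.11), while BCL2A1 and BCL2L10 had at most 2 counts over each genotype and were not tested.

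Among 13 genes of the mitochondrial channel and of mitochondrial dynamics, 11 had positive values (median 0.17) and 1 had an unadjusted p under 0.05. That gene was MIEF1, a receptor for the fission factor DNM1L, with a log2 fold change of -0.25 (SE 0.10, adjusted p = 0.238 by edgeR). VDAC2, which helps to place BAX and BAK1 in the membrane, had one of 0.19 (SE 0.15). In 6 tested inhibitors of apoptosis the median was -0.03, and NAIP, at -0.47 on the log2 scale, came closest to a call (SE 0.21, adjusted p = 0.288 by edgeR).

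In 15 tested death receptor and initiator caspase genes the median was -0.04, and 4 had an unadjusted p under 0.05. TNFRSF1A, a receptor for tumour necrosis factor, came closest, with 16.4, 13.1 and 17.4 CPM in the knockout and 11.1, 9.99 and 10.3 CPM in wildtype (log2 fold change 0.58, SE 0.15, adjusted p = 0.061 by edgeR). It was called in 7 of 17 alternatives. CASP8, the caspase that cleaves BID, had a log2 fold change of -0.06 (SE 0.11).

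Of 13 genes that act on the turnover of MCL1, PMAIP1 and BCL2L11 proteins, 2 had an unadjusted p under 0.05, and the median was -0.01. USP13, a deubiquitinase, came closest at -0.37 on the log2 scale (SE 0.13, adjusted p = 0.151 by edgeR). HUWE1 and FBXW7, ubiquitin ligases that mark MCL1 for degradation, had log2 fold changes of -0.38 (SE 0.19) and 0.28 (SE 0.10). Of 18 genes of phosphatase 2A and kinases described as responsive to ceramide, 3 had an unadjusted p under 0.05, and the median was 0.06. The smallest p belonged to PPP2R5E, a regulatory subunit of phosphatase 2A, at 55.4, 69.3 and 60 CPM in the knockout against 77.6, 72.9 and 87.7 CPM in wildtype (log2 fold change -0.37, SE 0.12, adjusted p = 0.131 by edgeR).

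**Figure D5:**
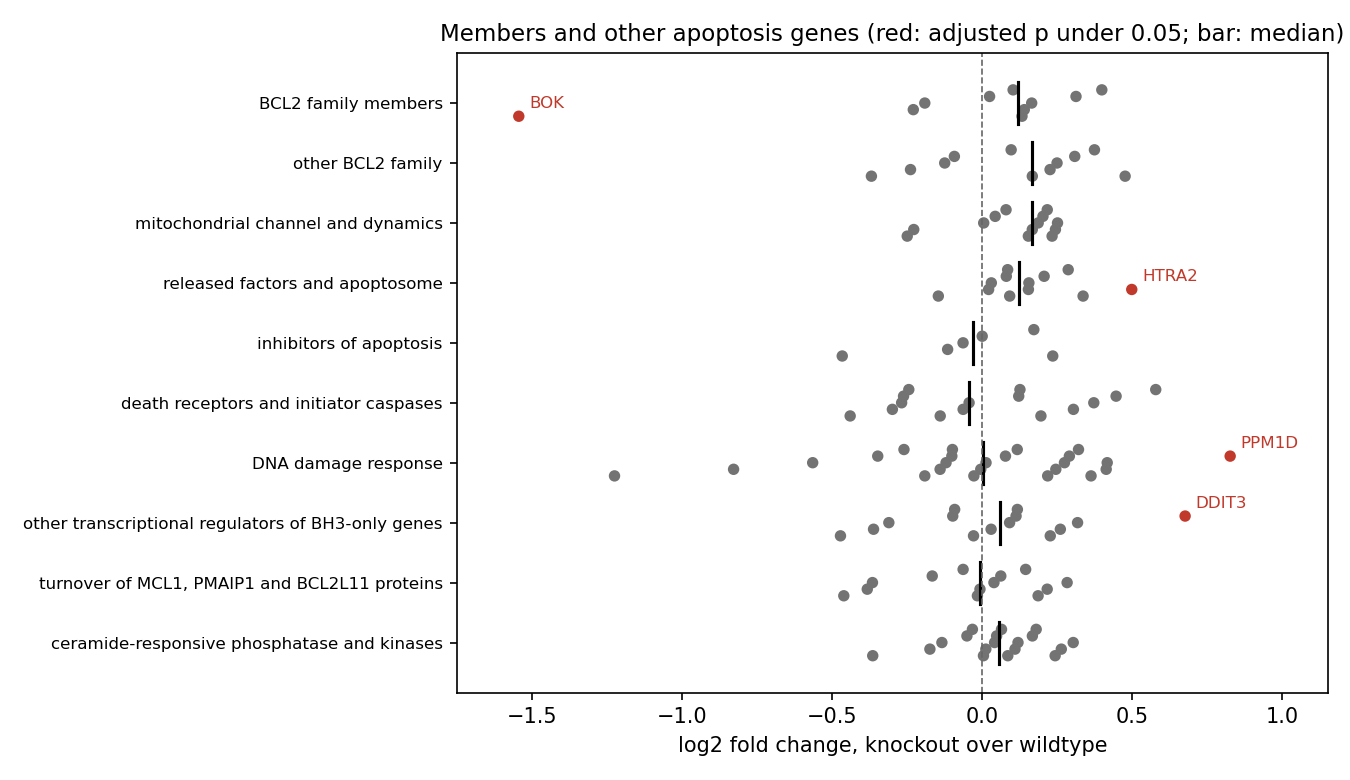
Log2 fold change (horizontal axis, knockout over wildtype) of each family member and of each tested gene in 9 apoptosis lists, with black bars for list medians and red for an adjusted p under 0.05. BOK lies alone at -1.55, and HTRA2 (0.50), PPM1D (0.83) and DDIT3 (0.68) are the 3 called genes of the lists.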

How the data were processed

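The authors deposited raw read counts, as whole numbers, for each gene symbol. Per the submitters' processing notes, bcl2fastq 2.20 and hg19 were used. Per the labels' protocols, cells were collected 24 h after passage, and stranded libraries from 1 ug of total RNA were sequenced as single reads of 75 nt. Neither aligner, counter nor annotation is given in the sources used here.

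From these counts, genes were filtered by expression with edgeR 4.0.16 (filterByExpr on genotype), libraries were scaled by TMM, and genes were tested in R 4.3.3 with the robust quasi-likelihood F test on genotype alone. Each SE was obtained by dividing the absolute log2 fold change by the root of F. Intervals use the t distribution with the residual and prior degrees of freedom. Alternatives used limma 3.58.1 and DESeq2 1.42.0. The pipeline was tested on simulated data. Lengths come from GENCODE release 29, and the order of genes and the promoter from RefSeq on GRCh38.p14, so names were matched and no hg19 coordinate is given. All 152 list and marker genes were matched, 2 through an older symbol. No pair of replicates agreed within sampling noise (chi-square per degree of freedom 12.6 to 52.6). A count of 3 corresponds to 0.109 to 0.161 CPM.

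Members and lists were chosen with earlier results of these data known. Named are the 10 members, DEGS1, and in each list up to 4 called genes or the gene with the smallest p. Others were named after their values were seen. These are CDKN1A, SUSD6, FOXO3, BCL2L2, VDAC2, CASP8, HUWE1, FBXW7, the neighbours of BOK and some whose calls depend on the test. 1 gene of the lists is not reported here.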

Additional observations from a re-analysis of the deposited data

How the results depend on the processing

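Of the 10 members, 8 kept their direction and stayed uncalled in all 17 alternatives. BOK kept its direction in all 17 and lost its call in 8. BID had log2 fold changes of -0.02 with library size only, -0.02 with the length and GC trend removed, and -0.07 to 0.21 over the fits without 1 library. No member was called with upper-quartile scaling, library size only or limma voom (0 each, with 3, 3 and 2 members at an unadjusted p under 0.05), or at an adjusted p under 0.01 (0 again, with 2). The fits without 1 library called 0 to 1 members, 1 to 36 genes of the other apoptosis lists and 380 to 3825 genes in all. The 36 and the 3825 came without wildtype replicate 2. Among all genes 424 were called without knockout replicate 1, 380 without knockout replicate 3 and 441 without wildtype replicate 1. The threshold of 0.01 left 375 genes in all and 1 of the lists. The lists held 5 calls in the DESeq2 Wald test, 6 with no filter, and 5 with the length and GC trend removed, which was added after seeing the data. The causes were not tested.

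Same-numbered knockout and wildtype libraries did not deviate together in each pair (correlations of 0.21, 0.30 and -0.12). They also share a code in the labels whose meaning is not given, so whether they are pairs is not known, and they were not treated as such. With the replicate block 1082 genes, 1 member (BOK, log2 fold change -1.52, adjusted p = 0.015 by edgeR) and 6 list genes were called. MCL1, lower in the knockout in each same-numbered pair, had an adjusted p of 0.218 in that fit, and BBC3, higher in each, one of 0.364. Depth limits BOK and BBC3, which had 22 to 93 counts per library. Intervals from 3 libraries per genotype do not exclude modest changes in the uncalled members.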
